A study of Mus musculus with 18 samples.

Results

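The transcription factors that set intestinal epithelial identity were followed through 8 genes, *Cdx1*, *Cdx2*, *Hnf4a*, *Hnf4g*, *Klf4*, *Klf5*, *Gata6* and *Atoh1*, given by name and found by gene identifier among the 47729 genes of the count table. All 8 were found and passed the filter on low counts in each of the 3 comparisons. As background, the CDX homeobox proteins specify intestinal fate and maintain it in the adult, and the nuclear receptors HNF4A and HNF4G act with them on genes of absorptive cells. KLF4 and KLF5 are zinc finger proteins with opposed places in the crypt, KLF5 in dividing cells and KLF4 in differentiated cells. GATA6 is a zinc finger factor of endoderm and its epithelia, and ATOH1 is the basic helix-loop-helix protein that commits progenitors to the secretory lineage.

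RNA was sequenced from the colon of 9 C57BL/6 mice, 3 in each of 3 groups. Control WT mice (1 to 3) are wild type with the control label for treatment. AOM-DSS WT mice (4 to 6) are wild type and had colitis-associated cancer induced by the carcinogen azoxymethane (AOM, 10 mg/kg) and 3 cycles of 2.5% dextran sulfate sodium (DSS), an agent that injures the colon epithelium. AOM-DSS Claudin-2TG mice (7 to 9) had the same treatment and carry a *Cldn2* transgene behind the villin promoter, which is active throughout the intestinal epithelium and is not limited to tumors. No Claudin-2TG mice with the control label were included, and ages are not given. The deposited protocol text describes AOM and DSS under every sample, so the groups follow the treatment label. Each library was read on 2 lanes, which were summed, and held 14142711 (mouse 6) to 22262546 (mouse 5) counts. Mice 6, 7 and 9 had 28.4%, 38.6% and 32.4% of their counts from the second lane, and the other 6 had 50.2% to 50.3%.

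Several libraries stand apart. Levels are given in counts-per-million (CPM) units after normalization by the trimmed mean of M values. Control mouse 1 had 215 CPM of *Xist*, the RNA of the inactive X chromosome of female cells, and 0.498 CPM summed over the Y-linked *Ddx3y*, *Eif2s3y*, *Kdm5d* and *Uty*. In the other 8 mice *Xist* was at most 0.204 CPM and the Y-linked sum at least 146 CPM, so mouse 1 differs in sex from the rest. AOM-DSS WT mouse 6 was the lowest of the 9 mice for 6 of the 8 factors, and AOM-DSS WT mouse 4 was the lowest for *Klf5* and *Gata6*. Claudin-2TG mouse 9 was the highest for 6 of the 8, with *Hnf4g* highest in Control mouse 2 and *Klf5* in Control mouse 3.

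*Cldn2*, a pore-forming tight junction gene, served to check the transgene label. It was at 192, 258 and 243 CPM in Control WT mice 1 to 3, 122, 136 and 134 CPM in AOM-DSS WT mice 4 to 6 and 209, 217 and 249 CPM in Claudin-2TG mice 7 to 9. All Claudin-2TG mice were above all AOM-DSS WT mice, and they overlapped the controls. The log2 fold change was 0.78 (SE 0.12, adjusted p = 0.0103) in Claudin-2TG against AOM-DSS WT and −0.03 (SE 0.12, adjusted p = 0.897) against Control WT, and −0.82 (SE 0.14, adjusted p = 0.0138) in AOM-DSS WT against Control WT. Adjusted p-values here and below are from edgeR's quasi-likelihood test on the 6 mice compared, adjusted by Benjamini-Hochberg over all genes tested, with a threshold of 0.05. The first call was lost without mouse 8 (0.82, adjusted p = 0.0580) and without mouse 9 (0.71, adjusted p = 0.0597), and the last without mouse 2 (−0.74, adjusted p = 0.0635) and without mouse 3 (−0.79, adjusted p = 0.0554). *Vil1*, the gene of villin, was at 597 to 854 CPM in the 9 mice, and counts do not tell the transgene from the endogenous gene.

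The 8 genes span a wide range of levels. In CPM per kilobase of gene length (RPKM), the scale on which the levels of the 8 are compared, *Cdx1* was the highest in Control WT at 323 ± 15.8 RPKM (SD, n = 3). *Klf4* followed at 239 ± 15.7 RPKM, *Hnf4a* at 189.6 ± 14.8 RPKM and *Klf5* at 125 ± 9.37 RPKM. *Cdx2* was at 43.01 ± 8.44 RPKM, *Atoh1* at 30.9 ± 2.89 RPKM, *Gata6* at 18.1 ± 1.004 RPKM and *Hnf4g* at 8.23 ± 1.53 RPKM. No neighbours in this order overlapped between control mice. The order of group means was the same in both AOM-DSS groups. In AOM-DSS WT the ranges of *Klf4* and *Hnf4a*, of *Hnf4a* and *Klf5* and of *Cdx2* and *Atoh1* overlapped, and in Claudin-2TG those of *Cdx1* and *Klf4*. These ranges overlapped between mice, while within each of the 9 mice the order of the 8 was the same.

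**Figure D1:**
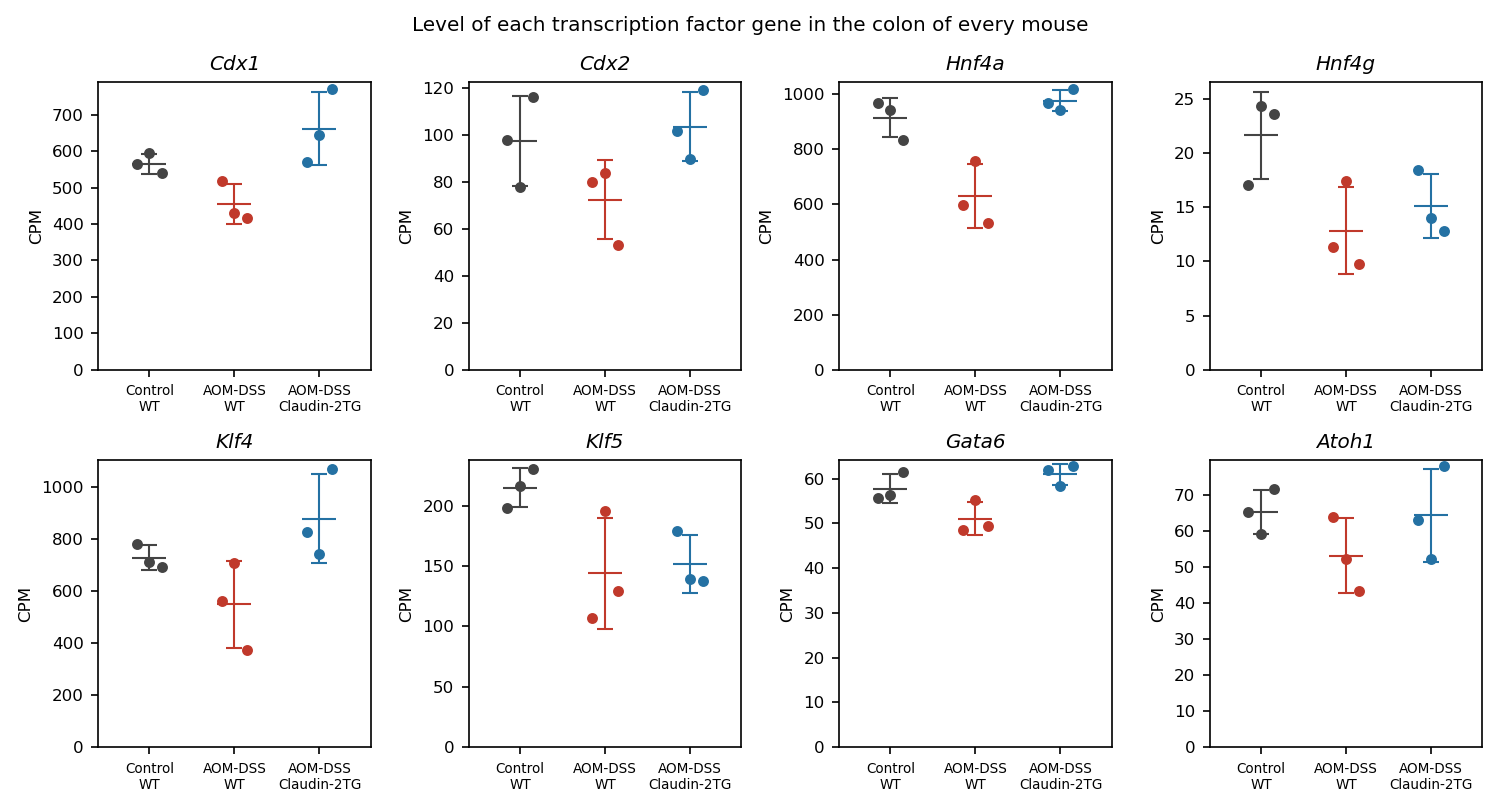
Level of each of the 8 factors in CPM (vertical axis, from 0) in the 9 mice by group, where points are mice and bars are the mean ± SD of 3 mice. For *Hnf4a* the AOM-DSS WT mice sit at 533 to 759 CPM, below all mice of the other groups, and for *Klf5* the Claudin-2TG mice sit at 137 to 179 CPM, below all controls.

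*Cdx1* (ENSMUSG00000024619, chr18:61018862-61036199, minus strand, build GRCm38) is an intestinal homeobox gene. It was at 564, 594 and 539 CPM in Control WT mice 1, 2 and 3. AOM-DSS WT mice 4, 5 and 6 had 517, 429.8 and 417 CPM, and Claudin-2TG mice 7, 8 and 9 had 570.05, 645 and 769.6 CPM. The AOM-DSS WT mice were below all mice of both other groups, while Claudin-2TG and control mice overlapped. The log2 fold change was −0.31 (SE 0.12, adjusted p = 0.122) in AOM-DSS WT against Control WT. It was 0.54 (SE 0.16, adjusted p = 0.0641) in Claudin-2TG against AOM-DSS WT and 0.23 (SE 0.12, adjusted p = 0.226) in Claudin-2TG against Control WT, and none passed. The first passed without mouse 4 (−0.41, adjusted p = 0.0287) and with epithelial scaling (−0.46, adjusted p = 0.0441), and ran from 0.0287 to 0.323 over the 15 alternatives. The second passed without mouse 4 (0.65, adjusted p = 0.0176), with DESeq2 (0.54, adjusted p = 0.0147), in a fit of all 9 libraries and with no filter, and ran from 0.0147 to 0.204.

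*Cdx2* (ENSMUSG00000029646, chr5:147300805-147307270, minus strand) encodes the homeobox protein that sets intestinal fate in the embryo. It was at 97.9, 77.8 and 116 CPM in the controls, 80.03, 83.8 and 53.1 CPM in AOM-DSS WT and 102, 89.7 and 119 CPM in Claudin-2TG. Mouse 6 was the lowest, AOM-DSS WT and control mice overlapped, and all Claudin-2TG mice were above all AOM-DSS WT mice. The log2 fold change was −0.42 (SE 0.21, adjusted p = 0.200) in AOM-DSS WT against Control WT, 0.51 (SE 0.19, adjusted p = 0.146) in Claudin-2TG against AOM-DSS WT and 0.09 (SE 0.16, adjusted p = 0.743) in Claudin-2TG against Control WT. None passed under any alternative.

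*Hnf4a* (ENSMUSG00000017950, chr2:163506808-163572910, plus strand) encodes a nuclear receptor of the gut and liver epithelium. It was at 968, 944 and 834 CPM in Control WT, 598, 759 and 533 CPM in AOM-DSS WT and 969, 944 and 1017 CPM in Claudin-2TG. Every AOM-DSS WT mouse was below every mouse of the other groups, which overlapped each other. *Hnf4a* rose in Claudin-2TG against AOM-DSS WT, with a log2 fold change of 0.63 (SE 0.16, adjusted p = 0.0406). The call was lost without mouse 6 (0.54, adjusted p = 0.0941), without mouse 7 (0.65, adjusted p = 0.110), without mouse 8 (0.66, adjusted p = 0.126) and without mouse 9 (0.61, adjusted p = 0.143). It was also lost with library size as the only scaling (0.53, adjusted p = 0.0587) and with scaling to the summed counts of 15 pan-epithelial genes (0.53, adjusted p = 0.0903), and adjusted p ran from 0.00236 to 0.143 over the 15 alternatives.

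Against Control WT, *Hnf4a* in AOM-DSS WT had a log2 fold change of −0.53 (SE 0.16, adjusted p = 0.0567) and did not pass. It passed without mouse 5 (−0.69, adjusted p = 0.0358), with DESeq2 (−0.53, adjusted p = 0.0104), in a fit of all 9 libraries, with no filter and under both scalings, and adjusted p ran from 0.0104 to 0.167. In Claudin-2TG against Control WT it was 0.10 (SE 0.09, adjusted p = 0.538), and this estimate turned to −0.0130 with library size and −0.14 with epithelial scaling.

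*Hnf4g* (ENSMUSG00000017688, chr3:3508030-3658052, plus strand), the paralog of *Hnf4a*, was the least abundant of the 8, with 144 to 549 counts per library. It was at 17.03, 24.3 and 23.6 CPM in Control WT, 11.3, 17.4 and 9.79 CPM in AOM-DSS WT and 18.4, 14.05 and 12.8 CPM in Claudin-2TG. Control mouse 1 was the lowest control and overlapped both other groups, and without it both were below the controls. The log2 fold change was −0.74 (SE 0.24, adjusted p = 0.0778) in AOM-DSS WT against Control WT, 0.23 (SE 0.25, adjusted p = 0.687) in Claudin-2TG against AOM-DSS WT and −0.51 (SE 0.18, adjusted p = 0.0950) in Claudin-2TG against Control WT. None passed. The first passed in 5 of the 15 alternatives, without mouse 5 (−1.03, adjusted p = 0.0401), with DESeq2 (−0.74, adjusted p = 0.0318), with epithelial scaling (−0.87, adjusted p = 0.0426), in a fit of all 9 libraries and with no filter, and ran from 0.0318 to 0.214. The last also passed in 5, without mouse 1 (−0.66, adjusted p = 0.0490), without mouse 7 (−0.69, adjusted p = 0.0428), with epithelial scaling (−0.73, adjusted p = 0.0360), with lane 2 only (−0.63, adjusted p = 0.0394) and with no filter (−0.52, adjusted p = 0.0111), and ran from 0.0111 to 0.271.

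*Klf4* (ENSMUSG00000003032, chr4:55527143-55532466, minus strand), a factor of goblet and surface cells, was at 783, 714 and 692 CPM in Control WT, 564, 708 and 375 CPM in AOM-DSS WT and 827, 742 and 1071 CPM in Claudin-2TG. Mouse 6 was far below the rest and mouse 9 far above, AOM-DSS WT mouse 5 lay within the controls, and the AOM-DSS groups did not overlap. For *Klf4* the log2 fold change was −0.40 (SE 0.22, adjusted p = 0.237) in AOM-DSS WT against Control WT, 0.68 (SE 0.24, adjusted p = 0.130) in Claudin-2TG against AOM-DSS WT and 0.28 (SE 0.13, adjusted p = 0.216) in Claudin-2TG against Control WT. Of these the second passed with DESeq2 alone (0.67, adjusted p = 0.0418), with a range of 0.0418 to 0.354 over the alternatives.

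*Klf5* (ENSMUSG00000005148, chr14:99298691-99313405, plus strand), a factor of dividing crypt cells, was at 198, 216 and 231 CPM in Control WT, 107, 196 and 129 CPM in AOM-DSS WT and 179, 139 and 137 CPM in Claudin-2TG. All mice of both AOM-DSS groups were below all controls, with mouse 5 closest to them, and the AOM-DSS groups overlapped. *Klf5* fell in Claudin-2TG against Control WT, with a log2 fold change of −0.50 (SE 0.12, adjusted p = 0.0259). The call was lost in a fit of all 9 libraries (−0.50, adjusted p = 0.202), without mouse 2 (−0.49, adjusted p = 0.0603), without mouse 3 (−0.44, adjusted p = 0.0986), without mouse 8 (−0.44, adjusted p = 0.102) and without mouse 9 (−0.43, adjusted p = 0.0835). It held without mouse 1 (−0.55, adjusted p = 0.0420), the mouse of the other sex, and adjusted p ran from 2.21e-04 to 0.202 over the alternatives.

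In AOM-DSS WT against Control WT the estimate for *Klf5* was −0.57 (SE 0.22, adjusted p = 0.112), and it passed without mouse 5 (−0.86, adjusted p = 0.0299), with a range of 0.0299 to 0.257 over the alternatives. Between the AOM-DSS groups it was 0.07 (SE 0.23, adjusted p = 0.913). That estimate was below 0 without mouse 4 (−0.10), without mouse 7 and under library size or epithelial scaling.

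*Gata6* (ENSMUSG00000005836, chr18:11052510-11085635, plus strand) varied least between mice. It was at 55.6, 56.3 and 61.5 CPM in Control WT, 48.5, 55.3 and 49.5 CPM in AOM-DSS WT and 61.9, 58.3 and 62.8 CPM in Claudin-2TG. The AOM-DSS WT mice were below all others, with mouse 5 only just below the lowest control. Its log2 fold change was −0.17 (SE 0.11, adjusted p = 0.313) in AOM-DSS WT against Control WT, 0.25 (SE 0.12, adjusted p = 0.248) in Claudin-2TG against AOM-DSS WT and 0.08 (SE 0.09, adjusted p = 0.612) in Claudin-2TG against Control WT. No alternative brought any of these under the threshold.

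*Atoh1* (ENSMUSG00000073043, chr6:64729125-64731245, plus strand), the switch to the secretory lineage, was at 65.3, 59.4 and 71.7 CPM in Control WT, 64.1, 52.2 and 43.4 CPM in AOM-DSS WT and 63.1, 52.3 and 78.1 CPM in Claudin-2TG. All 3 groups overlapped. Its log2 fold change was −0.29 (SE 0.15, adjusted p = 0.227) in AOM-DSS WT against Control WT, 0.27 (SE 0.19, adjusted p = 0.464) in Claudin-2TG against AOM-DSS WT and −0.02 (SE 0.14, adjusted p = 0.956) in Claudin-2TG against Control WT. The first passed without mouse 4 (−0.44, adjusted p = 0.0435), with a range of 0.0435 to 0.490 over the alternatives, and the others under none.

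Among the 8 genes, 3 overlap another annotated gene. *Hnf4a* overlaps the antisense *Hnf4aos*, with 0 to 2 counts per library, and a small nuclear RNA gene with 0 counts, and *Hnf4g* overlaps a pseudogene and a microRNA gene, each with 0 counts. *Gata6* overlaps *1010001N08Rik* on the opposite strand, which had 21 to 75 counts per library, 4.61% of those of *Gata6*. The strand setting of the counting is not given in the sources used here, so reads from the 2 strands of *Gata6* cannot be told apart.

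In AOM-DSS WT against Control WT, which asks what colitis-associated cancer changes in wild type colon, all 8 factors had estimates below 0 but none passed the test. The count was 0 of 8 with edgeR, when 15% of 15437 genes passed (1241 higher, 8.04%, and 1069 lower, 6.92%). At an unadjusted p under 0.05 it was 4 of 8, when 32.6% of all genes were under it, and with DESeq2 it was 2 of 8, when 3220 of 15437 genes passed. The median log2 fold change of the 8 was −0.41, against 0.02 over all genes, of which 48% were below 0. In *Cdx1*, *Hnf4a*, *Klf5* and *Gata6*, 4 of the 8, AOM-DSS WT mice were all below the controls, as for 19.1% of all genes, and in none were they all above, as for 18.9%. All 8 were below 0 under each of the 15 alternatives, with a median of −0.25 without mouse 6 and −0.39 without mouse 1. Genes passing in the whole table numbered 631 without mouse 1, 135 without mouse 2 and 4080 without mouse 4. The summed level of 15 pan-epithelial genes, given below, was above all controls in AOM-DSS WT mice 4 and 5 and within them in mouse 6. With scaling to that sum the median of the 8 was −0.56 and 3 of 8 passed, *Cdx1*, *Hnf4a* and *Hnf4g*, when 2387 of 15437 genes did.

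In Claudin-2TG against AOM-DSS WT, which asks what the transgene changes under the same treatment, all 8 estimates were above 0 and 1 of the 8 passed, *Hnf4a*. Over the whole table, 1421 of 14888 genes passed (9.54%), 326 higher (2.19%) and 1095 lower (7.35%), so 1 of 8 is near the share of all genes and is not a result about the 8. With library size 218 genes were higher and 1294 lower, and with epithelial scaling 202 and 1102. The 8 had a median of 0.39, against 0.01 over all genes, of which 51.1% were above 0. For *Cdx1*, *Cdx2*, *Hnf4a*, *Klf4* and *Gata6*, 5 of the 8, all Claudin-2TG mice were above all AOM-DSS WT mice, as for 12.8% of all genes, and for none were they all below, as for 15.2%. *Klf5* was the exception in direction under the settings given with its levels. The median of the 8 was 0.29 without mouse 6 and 0.37 without mouse 9. Genes passing numbered 58 without mouse 8, 108 without mouse 9 and 2894 without mouse 4.

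In Claudin-2TG against Control WT, which sets the treated transgenic colon beside the control wild type, 1 of the 8 passed, *Klf5*, which was lower. Over the whole table, 1501 of 15013 genes passed (10%), 589 higher (3.92%) and 912 lower (6.07%), so the share of the 8 is again near that of all genes. These calls moved to 276 higher and 1310 lower with library size and to 129 higher and 2209 lower with epithelial scaling. The median of the 8 was 0.09, against 0.00 over all genes, with 5 above 0 and 3 below. It was 0.01 without mouse 2 and 0.02 without mouse 9, each with 4 above and 4 below. With library size it turned to −0.03 (2 above and 6 below) and with epithelial scaling to −0.14 (1 above and 7 below). For *Klf5* alone all Claudin-2TG mice were below all controls, as for 16.4% of all genes, and for none of the 8 were they all above, as for 15%. The comparisons share mice, since each of the 3 groups enters 2 of them. Their values are therefore set side by side, and the difference between comparisons was not tested.

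**Figure D2:**
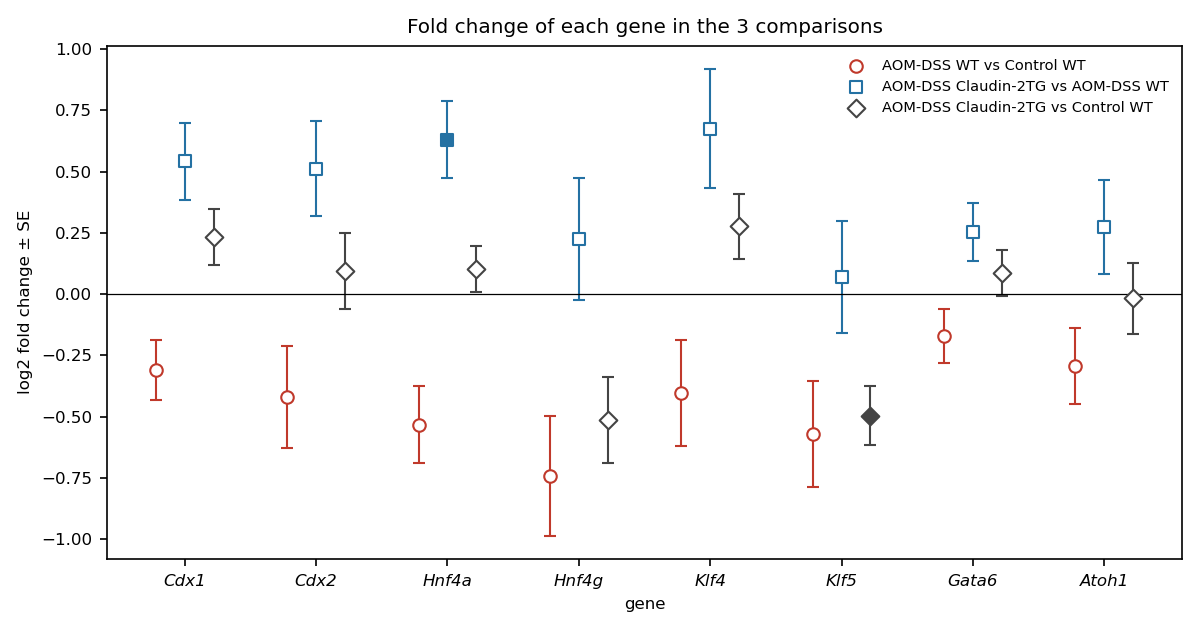
Log2 fold change of each factor (axis in log2 units) in the 3 comparisons with bars of ± SE, filled where the adjusted p was under 0.05 (edgeR) and open where it was not. In AOM-DSS WT against Control WT all 8 lie below 0, and in Claudin-2TG against Control WT *Klf5* (−0.50) and *Hnf4g* (−0.51) lie apart from the other 6 (−0.02 to 0.28).

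The scaling to epithelial RNA bears on all of these values. The 15 pan-epithelial genes, with *Krt8* as 28.96% of the sum, were at 18106, 18962 and 19404 CPM in Control WT, 23098, 19988 and 19056 CPM in AOM-DSS WT and 20045, 22869 and 23463 CPM in Claudin-2TG. AOM-DSS WT mice 4 and 5 and all Claudin-2TG mice were above the controls in this sum, and mouse 6 was within them. Scaling to it moved the median log2 fold change of all genes by −0.14 in AOM-DSS WT against Control WT, by −0.10 between the AOM-DSS groups and by −0.23 in Claudin-2TG against Control WT. Library size alone moved it by −0.10 and −0.11 in the last 2. Epithelial scaling in AOM-DSS WT against Control WT gave 786 genes higher and 1601 lower. Relative to the median of all genes, the median of the 8 factors was −0.44, 0.40 and 0.09 with epithelial scaling and −0.43, 0.38 and 0.09 as reported. Per 1000 CPM of the panel, *Cdx1* was at 27.8 to 31.3 in Control WT, 21.5 to 22.4 in AOM-DSS WT and 28.2 to 32.8 in Claudin-2TG mice. On this scale every AOM-DSS WT mouse was below every other mouse only for *Cdx1* and *Hnf4a*. Against the controls alone, every AOM-DSS WT mouse was below every control for all of the 8 but *Cdx2*. This now held for *Hnf4g* (at most 0.870 against at least 0.941), *Klf4* (35.4 against 35.6) and *Atoh1* (2.78 against 3.13), which had overlapped in CPM. No share of all genes is given for this scale, so these counts are not a result about the 8. Scaling to the panel also moved the median of all genes by −0.14 in this comparison, as given above. The AOM-DSS groups now overlapped for *Cdx2* (2.79 to 4.19 in AOM-DSS WT and 3.92 to 5.07 in Claudin-2TG), *Klf4* (19.7 to 35.4 and 32.4 to 45.6) and *Gata6* (2.10 to 2.77 and 2.55 to 3.09), which had not overlapped in CPM.

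The 8 factors include 3 pairs of related genes, whose ratio within a mouse needs no scaling between libraries. These ratios were chosen after the values were seen and carry no test. The ratio of *Klf4* to *Klf5*, from counts per gene length, was 2.23, 1.87 and 1.69 in Control WT, 2.97, 2.04 and 1.64 in AOM-DSS WT and 2.60, 3.01 and 4.40 in Claudin-2TG. All Claudin-2TG mice were above all controls, by 0.77 (SE 0.25) on the log2 scale, and AOM-DSS WT overlapped both groups. The ratio of *Hnf4a* to *Hnf4g* was 30.97, 21.2 and 19.2 in Control WT, 28.7, 23.8 and 29.6 in AOM-DSS WT and 28.6, 36.6 and 43.2 in Claudin-2TG. Control WT and Claudin-2TG overlapped through mice 1 and 7, with a log2 difference of 0.62 (SE 0.27). The ratio of *Cdx1* to *Cdx2* was 7.44, 9.85 and 5.999 in Control WT, 8.34, 6.62 and 10.1 in AOM-DSS WT and 7.24, 9.29 and 8.36 in Claudin-2TG. Here all groups overlapped, with a log2 difference of 0.12 (SE 0.23) between Claudin-2TG and Control WT and 0.12 (SE 0.27) between AOM-DSS WT and Control WT. The first was 0.31 without mouse 2 and −0.05 without mouse 3, and the second 0.30 without mouse 2, −0.0550 without mouse 3 and −0.03 without mouse 6, so neither kept its sign.

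**Figure D3:**
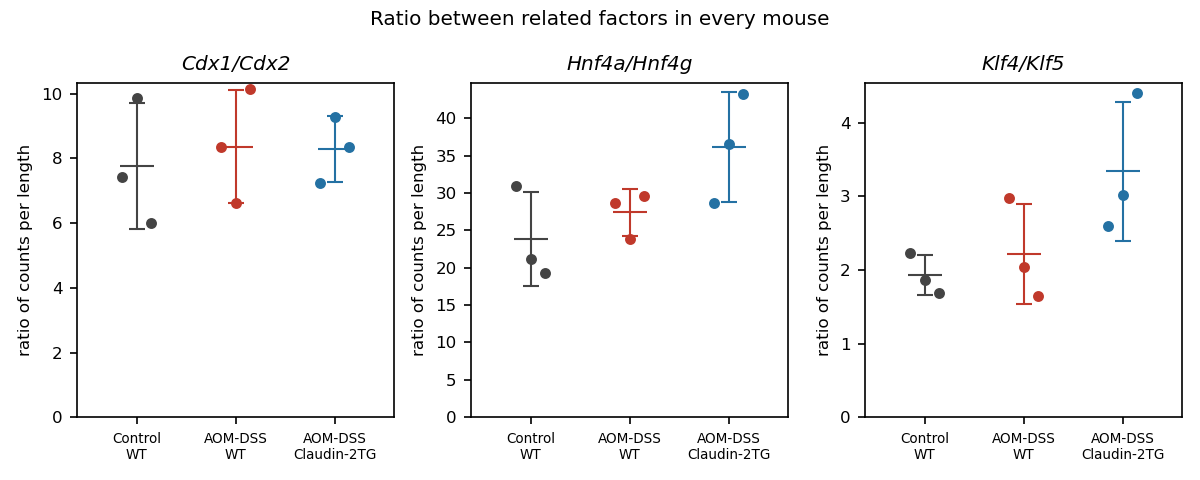
Ratio between related factors in each mouse (vertical axis, counts per gene length, from 0), where points are mice and bars are the mean ± SD of 3 mice. *Klf4*/*Klf5* was 1.69 to 2.23 in Control WT and 2.60 to 4.40 in Claudin-2TG mice, and *Cdx1*/*Cdx2* overlapped in all groups.

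The genes most like each factor were sought among 13919 genes with a mean of at least 1 CPM, by the root mean square difference of centred log2 CPM over the 9 mice. For *Cdx1* they included *Nans* (0.07) and *Slc9a3r1* (0.08). *Cdx2* was closest to *Insm1* (0.12), *C2cd4a* (0.15) and *Atoh1* (0.17), the only case in which another of the 8 was among the nearest 3. For *Hnf4a* they were *Ppp1r10* (0.10), *Cldn23* (0.10) and *Gucy2c* (0.10). *Hnf4g* was closest to *Usp33* (0.11), *Ston1* (0.12) and *Rapgef5* (0.13), and *Klf4* to *Mtm1* (0.16), *Fbxo25* (0.16) and *Ugt2b34* (0.17). *Klf5* was closest to *Vcl* (0.06), *Nup98* (0.10) and *Dock1* (0.10). *Gata6* was closest to *Atf2* (0.04), *Rab3d* (0.05) and *Gabpa* (0.05), and *Atoh1* to *Ank3* (0.11), *Gm5529* (0.11) and *Gm7935* (0.12). Among the 8, *Hnf4a* and *Klf4* were nearest to each other (0.17), and so were *Hnf4g* and *Klf5* (0.17) and *Cdx2* and *Atoh1* (0.17). Many other genes were nearer in most cases. Among all genes compared, *Klf4* ranked 166 from *Hnf4a*, and *Hnf4a* ranked 5 from *Klf4*. *Klf5* ranked 19 from *Hnf4g*, *Hnf4g* 40 from *Klf5*, *Atoh1* 3 from *Cdx2* and *Cdx2* 126 from *Atoh1*. The nearest of the 8 to *Cdx1* was *Gata6* (rank 863), and to *Gata6* it was *Atoh1* (rank 3778).

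The promoters of factors that were higher in every Claudin-2TG mouse than in every AOM-DSS WT mouse are shown for reference. RefSeq promoters (build GRCm38.p6) matched 4 of the 8 genes, *Cdx2*, *Hnf4a*, *Klf4* and *Atoh1*. The 250 bases before the start in the RefSeq promoter set, which can differ from that of the counted gene, are printed for the first 3, 5′ to 3′. Capitals mark matches on either strand to the letters searched, which were GTTAAT for the HNF1 core, CAAAGT for the HNF4 core, TTTATG for the CDX core, AGATAA for the GATA core, GGGCGGG for the KLF core and CAGCTG for the E-box. Among 32851 promoters of this length, 6.43% hold the HNF1 letters, 12.6% the HNF4 letters, 10.8% the CDX letters, 9.99% the GATA letters, 23.4% the KLF letters and 13.001% the E-box.
Hnf4a upstream promoter, chr2:163506607-163506856, plus strand: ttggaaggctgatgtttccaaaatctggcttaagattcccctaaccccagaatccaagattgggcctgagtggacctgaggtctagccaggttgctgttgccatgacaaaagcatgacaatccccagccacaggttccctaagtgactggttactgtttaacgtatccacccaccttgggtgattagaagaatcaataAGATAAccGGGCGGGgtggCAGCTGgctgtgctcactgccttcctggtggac
Hnf4a downstream promoter, chr2:163546905-163547154, plus strand: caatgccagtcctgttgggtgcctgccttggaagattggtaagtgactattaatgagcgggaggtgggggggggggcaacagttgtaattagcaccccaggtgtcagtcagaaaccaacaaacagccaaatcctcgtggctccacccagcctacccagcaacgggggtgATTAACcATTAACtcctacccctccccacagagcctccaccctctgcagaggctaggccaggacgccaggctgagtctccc
Cdx2 promoter, chr5:147307250-147307499, minus strand: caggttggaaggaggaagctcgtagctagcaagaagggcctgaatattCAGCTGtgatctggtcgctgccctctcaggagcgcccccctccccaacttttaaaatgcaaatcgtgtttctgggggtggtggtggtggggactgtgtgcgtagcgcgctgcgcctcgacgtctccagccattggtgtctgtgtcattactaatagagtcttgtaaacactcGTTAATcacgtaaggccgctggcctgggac
Klf4 promoter, chr4:55532476-55532725, minus strand: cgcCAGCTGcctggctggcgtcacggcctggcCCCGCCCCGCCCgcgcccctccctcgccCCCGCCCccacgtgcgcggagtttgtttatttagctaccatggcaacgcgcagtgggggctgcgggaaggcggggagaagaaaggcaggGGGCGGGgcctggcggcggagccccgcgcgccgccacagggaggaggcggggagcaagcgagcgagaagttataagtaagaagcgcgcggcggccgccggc

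The upstream *Hnf4a* window held the GATA letters at −52, the KLF letters at −44 and the E-box at −33 from the RefSeq start. This window ends at 163506856, past the start of the counted gene at 163506808. The KLF letters and the E-box thus lie inside the counted gene, and the GATA letters span its start. The downstream *Hnf4a* window held the HNF1 letters on the opposite strand at −81 and −74. *Cdx2* held the E-box at −202 and the HNF1 letters at −30. *Klf4*, whose window is 74% G and C against a median of 52.4% over all promoters, held the KLF letters 4 times, at −218, −213, −190 and −101, the first 2 overlapping, and the E-box at −247. A match describes letters only, and counts are per gene, so the use of either *Hnf4a* promoter was not measured.

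Other regulators of the intestinal epithelium were read from a list of 44, of which 8 are also in another list used here. Among these, 4 of 42 rose and 9 fell in AOM-DSS WT against Control WT, with a median log2 fold change of −0.03. Of all genes, 8.04% were higher and 6.92% lower in this comparison. *Foxa2*, a forkhead factor of the endoderm, was lower at −1.26 (SE 0.14, adjusted p = 0.00492), and *Nr5a2*, a nuclear receptor of the crypt, at −2.004 (SE 0.22, adjusted p = 0.00495). *Creb3l1* (−1.10), *Tfcp2l1* (−0.96), *Esrrg* (−1.40) and the Notch target *Hes1* (−0.65) fell too. *Gata5*, a relative of *Gata6*, rose from 0.377 ± 0.0675 CPM in Control WT to 15.3 ± 13.05 CPM in AOM-DSS WT (SD, n = 3), and *Foxa3* (0.72) and *Creb3l3* (1.84) rose. Calls numbered 2 without mouse 2 and 21 without mouse 4. The list summed to 4583, 5124 and 4339 CPM in Control WT, 3914, 3752 and 3471 CPM in AOM-DSS WT and 4802, 4487 and 4708 CPM in Claudin-2TG, 17.4% of it *Elf3*, and *Cdx4* had 0 counts.

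In Claudin-2TG against AOM-DSS WT, 6 of 42 regulators rose and 2 fell, with a median of 0.23. Of all genes, 2.19% were higher and 7.35% lower. *Nr5a2* was higher at 1.50 (SE 0.23, adjusted p = 0.00926) and *Foxa2* at 0.83 (SE 0.13, adjusted p = 0.00957). *Esrrg* (1.24), the vitamin D receptor gene *Vdr* (0.90) and *Creb3l1* (0.79) rose, *Grhl3* (−1.61) fell, and *Gata5* fell to 0.321 ± 0.0610 CPM. Calls numbered 0 without mouse 8 or 9 and 15 without mouse 4.

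In Claudin-2TG against Control WT, 5 of 41 regulators rose and 2 fell, with a median of 0.01. Of all genes, 3.92% were higher and 6.07% lower. The shares of all genes in the 3 comparisons are also the background for the counts of every list below. *Sox9* (0.61, SE 0.12, adjusted p = 0.0109), the stem cell factor gene *Ascl2* (0.98), *Foxa3* (0.70), *Esrra* (0.41) and *Tcf7l2* (0.42) rose, and *Nr5a2* (−0.50) and *Foxa2* (−0.42) fell. Calls numbered 2 without mouse 3 and 6 without mouse 2.

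Among the other krüppel-like factors, relatives of KLF4 and KLF5, *Klf3* (−0.70, SE 0.14, adjusted p = 0.0205) and *Klf9* (−0.70, SE 0.16, adjusted p = 0.0265) fell and none rose in AOM-DSS WT against Control WT, of 13 tested from a list of 15, with a median of −0.20. The 2 of 13 are near the 15% of all genes that passed. Calls numbered 0 without mouse 1, 2 or 6. None of 12 passed in Claudin-2TG against AOM-DSS WT (median 0.11), when 9.54% of all genes did, and none of 12 against Control WT (median −0.15), when 10% did, though 1 passed without mouse 1, 7 or 9. The family summed to 943, 976 and 842 CPM in Control WT, 637, 968 and 689 CPM in AOM-DSS WT and 933, 717 and 969 CPM in Claudin-2TG, 35.3% of it *Klf6*, and *Klf14* had at most 3 counts in any library.

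Notch signalling, which represses *Atoh1*, was read from 23 genes, 3 of them also in another list. In AOM-DSS WT against Control WT, 2 of 20 rose, *Dll4* (0.62) and *Notch4* (0.58), and 1 fell, *Hes1* (−0.65), with a median of 0.16. These 3 of 20 are near the 15% of all genes that passed. In Claudin-2TG against AOM-DSS WT, 6 of 19 fell, among them *Mfng* (−1.36) and *Notch4* (−0.62), and 0 rose, with a median of −0.09. Of all genes, 7.35% were lower and 2.19% higher there. Against Control WT, 2 of 20 rose in Claudin-2TG, among them *Dll4* (0.72), and *Heyl* fell from 1.13 ± 0.189 CPM to 0.0978 ± 0.0462 CPM, with a median of −0.10. Here 3.92% of all genes were higher and 6.07% lower. Leaving out 1 mouse gave 0 to 5, 0 to 8 and 1 to 3 calls in these comparisons, none in the first without mouse 1, 2 or 3 and none between the AOM-DSS groups without mouse 5, 7, 8 or 9. The list summed to 515, 540.5 and 522 CPM in Control WT, 485, 598 and 593 CPM in AOM-DSS WT and 546, 526 and 509 CPM in Claudin-2TG, 32.2% of it *Adam10*.

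The secretory programme downstream of ATOH1 was read from 21 genes, 8 of them also in another list. Of 21 tested, 3 rose and 2 fell in AOM-DSS WT against Control WT, with a median of 0.04, when 15% of all genes passed. Those that rose were *Spink4* (0.71), *Foxa3* (0.72) and *Dll4* (0.62). The goblet cell gene *Clca1* was lower at −0.96 (SE 0.18, adjusted p = 0.0173), and was higher in Claudin-2TG against AOM-DSS WT at 0.98 (SE 0.24, adjusted p = 0.0372). In that comparison 2 of 21 rose and 0 fell (median 0.10), near the 9.54% of all genes that passed. Against Control WT 4 rose and 0 fell (median 0.12), when 3.92% of all genes were higher and 6.07% lower. Leaving out 1 mouse gave 0 to 7, 0 to 3 and 0 to 2 calls, none in the first without mouse 1 or 2, none in the second without any of mice 5 to 9 and none in the last without mouse 3. The list summed to 15912, 18043 and 18001 CPM in Control WT, 16482, 13353 and 12057 CPM in AOM-DSS WT and 15055, 14085 and 22526 CPM in Claudin-2TG, 20.6% of it *Clca1*, and mouse 6 was the lowest and mouse 9 the highest, as for *Atoh1*.

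Absorptive genes, on which CDX and HNF4 proteins act, were read from a list of 36, 3 of them also in another list. Here 3 of 32 rose and 2 fell in AOM-DSS WT against Control WT, with a median of −0.13. These 5 of 32 are near the 15% of all genes that passed. All genes passing were 9.54% in Claudin-2TG against AOM-DSS WT and 10% against Control WT. In AOM-DSS WT against Control WT, 2 absorptive genes are named. The carbonic anhydrase gene *Car4* was lower at −1.65 (SE 0.33, adjusted p = 0.0223), and *Guca2b* was higher at 0.84 (SE 0.15, adjusted p = 0.0160). Between the AOM-DSS groups, 3 of 32 rose in Claudin-2TG and 1 fell, with a median of 0.29, and *Car4* was higher at 1.90 (SE 0.31, adjusted p = 0.0131) and the water channel gene *Aqp8* at 1.84 (SE 0.34, adjusted p = 0.0190). Against Control WT, 2 of 32 rose, *Apob* (1.84, SE 0.14, adjusted p = 1.53e-04) and *Espn* (0.52), and 0 fell, with a median of 0.18. Leaving out 1 mouse gave 0 to 8, 0 to 9 and 1 to 4 calls, none in the first without mouse 1, 2 or 3 and none in the second without mouse 8 or 9. The list summed to 24421, 23331 and 21081 CPM in Control WT, 25077, 21180 and 17040 CPM in AOM-DSS WT and 24253, 26121 and 29646 CPM in Claudin-2TG, 28.9% of it *Lgals4*, and *Fabp1* and *Apoa4* had at most 3 counts in any library.

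The pan-epithelial genes gave 1 rise and 1 fall of 15 in AOM-DSS WT against Control WT (median 0.16), and the junction gene *Ocln* fell (−0.60). Between the AOM-DSS groups 1 of 15 rose in Claudin-2TG, *Ocln* (0.73), and 1 fell (median 0.06). Against Control WT, *Krt8* (0.43) and *Cldn7* (0.31) rose in Claudin-2TG and none fell of 14 (median 0.13). Leaving out 1 mouse gave 0 to 3, 0 to 3 and 0 to 2 calls. No gene passed without mouse 2 in AOM-DSS WT against Control WT, without mouse 7, 8 or 9 in Claudin-2TG against AOM-DSS WT and without mouse 1, 2, 3, 8 or 9 in Claudin-2TG against Control WT.

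Markers of other cells moved between the groups. The 14 leukocyte genes, 53.2% of the sum from *Lyz2*, were at 113, 50.97 and 67.1 CPM in Control WT, 154, 237 and 256 CPM in AOM-DSS WT and 63.4, 53.7 and 31.6 CPM in Claudin-2TG. The sum was higher in each AOM-DSS WT mouse than in any other mouse. *Cdx1*, *Hnf4a* and *Gata6* were lowest in these mice, while *Cdx2*, *Hnf4g*, *Klf4*, *Klf5* and *Atoh1* overlapped another group. The leukocyte sum and the group cannot be told apart here, and a link to the factors was not tested. Against Control WT, 8 of 14 rose in AOM-DSS WT and 0 fell (median 1.67), among them *Cd68* (1.67), and in Claudin-2TG against AOM-DSS WT 9 fell and 0 rose (median −1.94), among them *Ptprc* (−1.81). None of 14 passed in Claudin-2TG against Control WT (median −0.34). Leaving out 1 mouse gave 0 to 10, 0 to 12 and 0 to 1 calls, none in the first without mouse 2 and none in the second without mouse 8.

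The 9 smooth muscle genes, 22.8% of the sum from *Tagln*, were at 4201, 2118 and 3122 CPM in Control WT, 3127, 1108 and 1357 CPM in AOM-DSS WT and 1350, 1561 and 1015 CPM in Claudin-2TG. None passed in AOM-DSS WT against Control WT (median −0.80) or between the AOM-DSS groups (median −0.48), and 5 of 9 fell in Claudin-2TG against Control WT (median −1.35), among them *Lmod1* (−1.40) and *Smtn* (−0.88). Smooth muscle genes passing without mouse 4 numbered 7 in the first and 1 in the second, and calls in the last ran from 3 (without mouse 3 or 7) to 8 (without mouse 2). The 9 genes of enteric neurons and glia, 31.9% of the sum from *Ret*, were at 64.4, 40.5 and 59.3 CPM in Control WT, 33.02, 41.3 and 46.7 CPM in AOM-DSS WT and 19.6, 14.1 and 13.5 CPM in Claudin-2TG. *Ret* was at 9.94 ± 2.41 CPM in Control WT, 22.5 ± 13.4 CPM in AOM-DSS WT and 2.90 ± 0.313 CPM in Claudin-2TG (SD, n = 3), and the other 8 summed to 53.99, 33.2 and 47.2 CPM in Control WT, 25.9, 10.4 and 17.1 CPM in AOM-DSS WT and 16.4, 11.1 and 10.9 CPM in Claudin-2TG. Without *Ret*, a sum chosen after the values were seen, all AOM-DSS WT mice were below all controls and overlapped Claudin-2TG. The 9 genes gave 3 of 9, 1 of 7 and 9 of 9 lower in the 3 comparisons and none higher (medians −1.47, −0.47 and −1.85), with *Tubb3* at −2.11 in the last, and the 1 between the AOM-DSS groups was *Ret* (−2.96). No neuron or glia gene passed without mouse 1, 2, 3 or 6 in AOM-DSS WT against Control WT and without mouse 5, 7, 8 or 9 in Claudin-2TG against AOM-DSS WT. Those passing without mouse 4 in the first numbered 8, and calls in the last ran from 6 to 8 without 1 mouse. All Claudin-2TG mice were below all controls in both sums, in the comparison in which *Klf5* alone of the 8 factors passed, and a link was not tested.

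The 9 fibroblast genes, 44.03% of the sum from *Col3a1*, were at 413, 316 and 443 CPM in Control WT, 479, 1142 and 542 CPM in AOM-DSS WT and 257, 194 and 275 CPM in Claudin-2TG. In AOM-DSS WT 1 of 9 rose against Control WT, *Thy1* (1.01, median 0.93), and in Claudin-2TG 3 fell against AOM-DSS WT (median −1.43) and 2 against Control WT (median −0.86). The 8 endothelial genes, 27.8% of the sum from *Pecam1*, were at 41.2, 54.2 and 47.4 CPM in Control WT, 45.1, 60.9 and 49.2 CPM in AOM-DSS WT and 27.7, 24.3 and 28.1 CPM in Claudin-2TG. None passed in AOM-DSS WT against Control WT (median 0.11), 4 fell in Claudin-2TG against AOM-DSS WT (median −1.01), among them *Tie1* (−1.79), and 5 against Control WT (median −0.95), among them *Cdh5* (−1.69). No fibroblast gene passed without mouse 1, 2 or 3 in AOM-DSS WT against Control WT, without mouse 8 or 9 in Claudin-2TG against AOM-DSS WT and without mouse 3 in Claudin-2TG against Control WT. No endothelial gene passed without mouse 7, 8 or 9 in Claudin-2TG against AOM-DSS WT. Against Control WT, endothelial calls ran from 2 (without mouse 2 or 8) to 4 (without mouse 9), and fibroblast calls without mouse 4 numbered 5 in the first comparison and 5 in the second. All Claudin-2TG mice were below all other mice in both sums.

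The 9 neutrophil genes were at 208, 197 and 136 CPM in Control WT, 307, 374 and 349 CPM in AOM-DSS WT and 303, 348 and 328 CPM in Claudin-2TG, but 96.8% of this was *Ly6g*, while the other 8 summed to 0.697, 0.150 and 0.947 CPM in Control WT, 2.18, 49.7 and 27.9 CPM in AOM-DSS WT and 0.484, 0.504 and 0.293 CPM in Claudin-2TG, *Ngp* had 0 counts and *Mpo*, *Elane* and *Camp* had at most 3 in any library. Of those tested, 4 of 4 rose in AOM-DSS WT against Control WT, among them *S100a8* from 0.103 ± 0.137 CPM to 10.8 ± 9.20 CPM and *Ly6g* (0.82), with a median of 4.90. Of 3 tested in Claudin-2TG against AOM-DSS WT, 2 fell, with a median of −5.12, or −3.98 with near-absent genes set to 3 counts. Against Control WT *Ly6g* (0.87), the only gene tested, rose. The sum of the other 8 in Claudin-2TG stayed within the range of the controls, so *Ly6g* did not follow the other neutrophil genes there. None passed without mouse 2, 3 or 5 in AOM-DSS WT against Control WT and without mouse 7, 8 or 9 in Claudin-2TG against AOM-DSS WT. Neutrophil calls ran from 0 to 5 and from 0 to 3 in these comparisons without 1 mouse.

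Genes of other epithelia were read because the factors maintain intestinal fate. The 15 squamous genes, 29.004% of the sum from *Sprr1a*, were at 14.6, 13.5 and 19.8 CPM in Control WT, 34.4, 61.01 and 80.1 CPM in AOM-DSS WT and 17.3, 20.997 and 16.7 CPM in Claudin-2TG. Of 6 tested in AOM-DSS WT against Control WT, 3 rose and 0 fell (median 2.26), among them the keratin genes *Krt14* (3.90, SE 0.42, adjusted p = 0.00492) and *Krt13* (4.75, SE 0.53, adjusted p = 0.00541). Both fell in Claudin-2TG against AOM-DSS WT, 2 of 6 (median −1.73), and none of 4 passed in Claudin-2TG against Control WT (median 0.58). *Ivl* had 0 counts, and *Krt5*, *Krt1*, *Trp63* and *Sprr1b* had at most 3 in any library. None passed without mouse 8 in Claudin-2TG against AOM-DSS WT. Squamous calls ran from 2 to 5 in the first comparison and from 0 to 5 in the second without 1 mouse.

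The 11 gastric genes were near 0, at 0.697, 0.952 and 1.12 CPM in Control WT, 3.02, 4.74 and 9.999 CPM in AOM-DSS WT and 0.760, 1.21 and 0.879 CPM in Claudin-2TG, 39.7% of it *Muc6*. *Muc6* had 0 counts in the controls, rose to 3.004 ± 1.50 CPM in AOM-DSS WT and fell to 0.0873 ± 0.0456 CPM in Claudin-2TG, the call of 2 genes tested in the first comparison (median 5.03, or 2.77 with near-absent genes set to 3 counts) and of 1 in the second (−5.04, or −3.96). None was tested in Claudin-2TG against Control WT. None passed without mouse 8 in Claudin-2TG against AOM-DSS WT. *Gkn2* and *Atp4b* had 0 counts, and *Tff1* and *Muc5ac* had at most 3 in any library.

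The 10 small intestinal genes, 4 of them also in another list and 59.99% of the sum from *Rbp2*, were at 33.1, 33.7 and 29.1 CPM in Control WT, 53.9, 51.3 and 56.7 CPM in AOM-DSS WT and 61.8, 63.6 and 58.2 CPM in Claudin-2TG. All mice of both AOM-DSS groups were above all controls in this sum. Of 4 tested, 1 rose in AOM-DSS WT against Control WT (*Slc10a2*, 3.22, median 0.18), 1 in Claudin-2TG against AOM-DSS WT (*Fabp6*, 1.35, median −0.16) and 2 against Control WT (*Slc10a2*, 2.33, and *Rbp2*, 0.80, median 1.03), and none fell. *Lct* and *Apoa4* had at most 3 counts in any library. None passed without mouse 2, 3 or 6 in AOM-DSS WT against Control WT and without mouse 5, 6, 8 or 9 in Claudin-2TG against AOM-DSS WT. Small intestinal calls ran from 0 to 2, 0 to 5 and 1 to 3 in the 3 comparisons without 1 mouse.

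The 9 Paneth cell genes, 56.98% of the sum from *Lyz1*, were at 27.1, 23.4 and 30.6 CPM in Control WT, 179, 316 and 1700 CPM in AOM-DSS WT and 38.6, 46.5 and 33.98 CPM in Claudin-2TG. Mouse 6, lowest for *Cdx1*, *Cdx2*, *Hnf4a*, *Hnf4g*, *Klf4* and *Atoh1*, had the highest sums of Paneth, squamous, gastric and leukocyte genes, the last only with *Lyz2*, without which mouse 5 was highest. Of 5 tested in AOM-DSS WT against Control WT, 4 rose (median 7.08), with *Lyz1* from 3.24 ± 0.499 CPM to 438 ± 499 CPM, and in Claudin-2TG against AOM-DSS WT 1 of 5 fell, *Lyz1*, to 13.3 ± 4.48 CPM (median −5.03). Against Control WT 1 of 4 rose in Claudin-2TG, *Lyz1* (2.04, median 1.67). None passed without mouse 2 in AOM-DSS WT against Control WT and without mouse 5, 7, 8 or 9 in Claudin-2TG against AOM-DSS WT. Paneth calls ran from 0 to 4, 0 to 3 and 1 to 2 in the 3 comparisons without 1 mouse. *Defa20* and *Defa23* had 0 counts. The part of any of these cell types in the levels of the 8 factors was not tested.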

How the data were processed

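The authors deposited counts per gene as whole numbers for 18 columns, 2 lanes for each of 9 libraries, made from RNA isolated with the Quick-RNA kit and sequenced on a NovaSeq6000. The deposited Length column was used for RPKM and the ratios, and sums and shares of the gene lists are in CPM, which gene length does not enter. The submitters' processing notes name HISAT2, featureCounts, Subread and GRCm38, and the study's methods name TopHat2 and DESeq2. Versions and the strand setting are not given in the sources used here. Symbols were found for 47224 of 47729 gene identifiers.

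Lanes were summed. Each comparison was fitted on its 6 libraries with edgeR 4.0.16 in R 4.3.3 (trimmed mean of M values, filterByExpr with a minimum count of 10 and a total of 15, robust quasi-likelihood fit), a step tested on simulated data. P-values were adjusted over all genes tested. They set the difference between groups against the spread between these mice, which edgeR estimates with information shared over all genes. Alternatives were DESeq2 1.42.0, library size, upper quartile or epithelial scaling, no filter, at least 10 counts in every library, all 9 libraries in the fit, each lane alone and leaving out each mouse. For the ratios, the lanes and leaving out each mouse were added after the values were seen. So were the sums of gene lists without their most abundant gene. A permutation test of 3 against 3 mice cannot give an exact two-sided p below 0.1, so none was run. Log2 CPM for likeness used a prior count of 2. Overlapping genes are from GENCODE release M21. Tables were made with Python 3.11.15, pandas 2.3.3, numpy 2.4.6 and matplotlib 3.10.9.

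The members and the 16 gene lists were chosen with earlier results of these data known. Named genes are the 8 members, up to 10 called genes of the other regulators by adjusted p, up to 2 most abundant by CPM and 2 with the smallest adjusted p of each other list, up to 3 nearest in pattern to each member and *Cldn2*. *Notch4* in AOM-DSS WT against Control WT was named after its value was seen. So were the secretory genes that rose in that comparison, *Spink4*, *Foxa3* and *Dll4*.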

Additional observations from a re-analysis of the deposited data

How the results depend on the processing

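In AOM-DSS WT against Control WT, 0 of the 8 factors passed as reported, 2 with DESeq2, 2 in a fit of all 9 libraries, 3 with epithelial scaling, 1 with library size, 2 with no filter and 0 to 3 without 1 mouse. Of 15437 genes, 2310 passed as reported, 3220 with DESeq2, 2387 with epithelial scaling and 2284 with library size. Genes passing numbered 3171 of 15712 in a fit of all 9 libraries, 2490 of 26501 with no filter and 135 to 4080 without 1 mouse. In Claudin-2TG against AOM-DSS WT, 1 factor passed as reported, 3 with DESeq2, 2 in a fit of all 9 libraries, 0 with epithelial scaling, 0 with library size, 2 with no filter and 0 to 2 without 1 mouse. Of 14888 genes, 1421 passed as reported, 2072 with DESeq2, 1304 with epithelial scaling and 1512 with library size. Genes passing numbered 2136 of 15712 in a fit of all 9 libraries and 1710 of 26185 with no filter. They numbered 908 of 13192 with at least 10 counts in every library and 58 to 2894 without 1 mouse. In Claudin-2TG against Control WT, 1 factor passed as reported, 0 in a fit of all 9 libraries, 2 with epithelial scaling, 2 with lane 2 only, 2 with no filter and 0 to 2 without 1 mouse. Of 15013 genes, 1501 passed as reported and 2338 with epithelial scaling. Genes passing numbered 445 of 15712 in a fit of all 9 libraries, 1027 of 13619 with lane 2 only and 2567 of 25909 with no filter. They numbered 525 to 1383 without 1 mouse. The cause was not tested.

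The log2 fold changes that changed sign had not passed the test. For *Klf5* between the AOM-DSS groups they were −0.0235 with epithelial scaling and −0.0272 with library size, and −0.100 to 0.363 without 1 mouse (−0.0477 without mouse 7). In Claudin-2TG against Control WT, epithelial scaling gave −0.0122 for *Cdx1*, −0.141 for *Cdx2*, −0.137 for *Hnf4a* and −0.148 for *Gata6*, and library size gave −0.0275 for *Cdx2*, −0.0130 for *Hnf4a* and −0.0315 for *Gata6*. Without 1 mouse *Cdx2* ran from −0.0424 to 0.241 (−0.0225 without mouse 9), *Atoh1* from −0.182 to 0.110 (0.0531 without mouse 3) and *Cldn2* from −0.146 to 0.0550 (0.00630 without mouse 3 and 0.0122 without mouse 7). *Atoh1* was at 0.00990 with lane 1 only. Log2 ratio differences, which carry no test, changed sign too. *Cdx1*/*Cdx2* ran from −0.0550 to 0.303 without 1 mouse in AOM-DSS WT against Control WT, from −0.155 to 0.151 between the AOM-DSS groups (−0.00710 with lane 2 only) and from −0.0527 to 0.305 in Claudin-2TG against Control WT. *Klf4*/*Klf5* in AOM-DSS WT against Control WT ran from −0.0645 to 0.363.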
